A study of Mus musculus with 2 samples.

Results

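Conventional dendritic cells (cDC) are described here across the 2 single-cell libraries of a stroke study in mice. They were taken as the cells that the authors' deposited annotation calls cDC, 160 of 5793 cells, of which 107 of 3944 came from the aged library and 53 of 1849 from the young library. The aged library came from C57BL/6 mice aged 18 to 24 months and the young library from C57BL/6 mice aged 2 to 4 months. In both, blood was sampled 24 h after a transient proximal occlusion of the middle cerebral artery, and myeloid cells were taken by flow sorting on CD11b, with a Ly6G– and a Ly6G+ fraction. RNA was read with 10x Genomics 3′ chemistry (v2), which counts transcripts by unique molecular identifiers (UMIs). All groups had the occlusion, so no cell of an uninjured animal enters any comparison. For the number of mice behind each library, any pooling and the mixing ratio of the sorted fractions, the labels state nothing.

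There was 1 library per age, so no spread between animals could be measured and no test was made between ages. The age and the library cannot be told apart. Intervals below are exact 95% intervals and cover counting error only. The labels were made by the authors from these same cells, so the comparison of cDC with cells labelled Monocyte describes what the label holds and tests nothing.

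Conventional dendritic cells take up antigen, cut it into peptides and show the peptides to T cells on MHC class II molecules. They arise from bone marrow precursors that depend on the receptor Flt3, and they pass through blood as immature cells before they enter tissues. Type 1 cells depend on the transcription factors Irf8 and Batf3 and are known for cross-presentation to CD8 T cells. Type 2 cells carry Sirpa and CD11b and mainly address CD4 T cells. The sort here was on CD11b, the product of Itgam.

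Of the 5 genes used here as markers of cDC, H2-Aa and H2-Eb1 encode chains of the class II molecules. Their promoters carry the Y box, the CCAAT-type element at which the factor NF-Y binds beside the X box that recruits the Ciita complex. The promoter windows run from 250 bases before to 50 bases after the RefSeq start site in GRCm38.p6 and are printed 5′ to 3′ on the gene's strand. They are shown because both genes are markers of these cells and recur in the values that follow. Capitals mark the letters CTGATTGG, which were searched on both strands. H2-Aa lies at chr17:34287774-34288073 on the minus strand, with the motif's first base at -51 from the start site. H2-Eb1 lies at chr17:34305617-34305916 on the plus strand, with the motif's first base at -62.
H2-Aa: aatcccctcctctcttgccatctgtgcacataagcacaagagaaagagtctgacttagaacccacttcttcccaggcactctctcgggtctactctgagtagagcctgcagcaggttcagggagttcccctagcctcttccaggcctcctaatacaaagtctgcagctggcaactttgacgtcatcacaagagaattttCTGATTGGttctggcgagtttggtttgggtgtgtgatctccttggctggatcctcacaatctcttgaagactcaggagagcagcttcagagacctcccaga
H2-Eb1: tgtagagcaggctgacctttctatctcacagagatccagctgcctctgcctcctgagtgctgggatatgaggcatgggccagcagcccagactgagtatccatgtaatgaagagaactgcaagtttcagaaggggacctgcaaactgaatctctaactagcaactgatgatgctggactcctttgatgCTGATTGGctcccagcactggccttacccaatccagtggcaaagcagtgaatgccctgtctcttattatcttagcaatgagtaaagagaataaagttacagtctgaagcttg
The same letters stand in 4 of the 9 promoter windows that RefSeq gives for the class II list (8 of its 11 genes matched; H2-Eb2 and H2-Oa hold the other two) and in 1346 of 32851 promoter windows (4.10%) in the table. A match of letters is a description and not a measured binding site.

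The expression table held 11691 genes. A doublet caller took out its top-scoring cells at the expected rate, 124 cells (3.14%) of the aged and 27 (1.46%) of the young library, since its own automatic threshold marked 0 aged and 4 young cells. This left 104 aged and 52 young cDC with 719662 and 390099 UMIs in sum. The median depth was 6632 UMIs per aged cDC and 7712 per young cDC, with lowest values of 3941 and 2209, and in monocytes it was 6402 in aged and 6606 in young blood. Barcodes shared by both libraries numbered 12, of which 3 included a cDC. The aged library, which had more cells and more UMIs in sum, left 129 genes at 0 and the young library 854. Genes such as Clec9a, Mgl2, Xcr1 and Gcsam, at 0 in the whole young library, were therefore given no ratio between ages. Levels below are UMIs per 1e6 UMIs (CPM) over the summed cells of a population in a library.

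The share of cells labelled cDC was nearly the same in both libraries. It was 2.72% (2.23 to 3.29) in aged blood, 104 of 3820 kept cells, and 2.85% (2.14 to 3.73) in young blood, 52 of 1822. These intervals overlap widely. The shares depend on the sort: with neutrophils left out of the denominator they were 8.73% (7.18 to 10.5) in aged and 7.55% (5.69 to 9.78) in young blood.

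All 5 markers were higher in cDC than in monocytes in both libraries. Flt3 (chr5:147330741-147400489, minus strand), the growth factor receptor of dendritic cell precursors, stood at 142 CPM in aged cDC and 146 CPM in young cDC, against 6.09 CPM in aged monocytes and 9.66 CPM in young monocytes. H2-Aa (chr17:34282744-34287823, minus strand), the class II alpha chain, stood at 5671 and 5114 CPM in aged and young cDC, against 501 and 294 CPM in aged and young monocytes. H2-Eb1 (chr17:34305867-34316674, plus strand), a class II beta chain, stood at 3258 and 2715 CPM in aged and young cDC, against 258 and 140 CPM in aged and young monocytes. H2-Aa was also high in B cells, which present antigen too and had 3513 CPM in aged and 4473 CPM in young blood. Cd209a (chr8:3743397-3748984, minus strand), a C-type lectin of the DC-SIGN family, stood at 249 CPM in aged and 656 CPM in young cDC, against 3.28 CPM in aged and 2.21 CPM in young monocytes. Cd7 (chr11:121036747-121039418, minus strand), an immunoglobulin-family receptor better known from T and NK cells, stood at 588 CPM in aged and 479 CPM in young cDC, against 2.34 and 1.66 CPM in aged and young monocytes. Cd7 was not particular to cDC, since it had 294 CPM in aged and 274 CPM in young NK cells and 460 CPM in the aged cells labelled Mast cell.

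**Figure D1:**
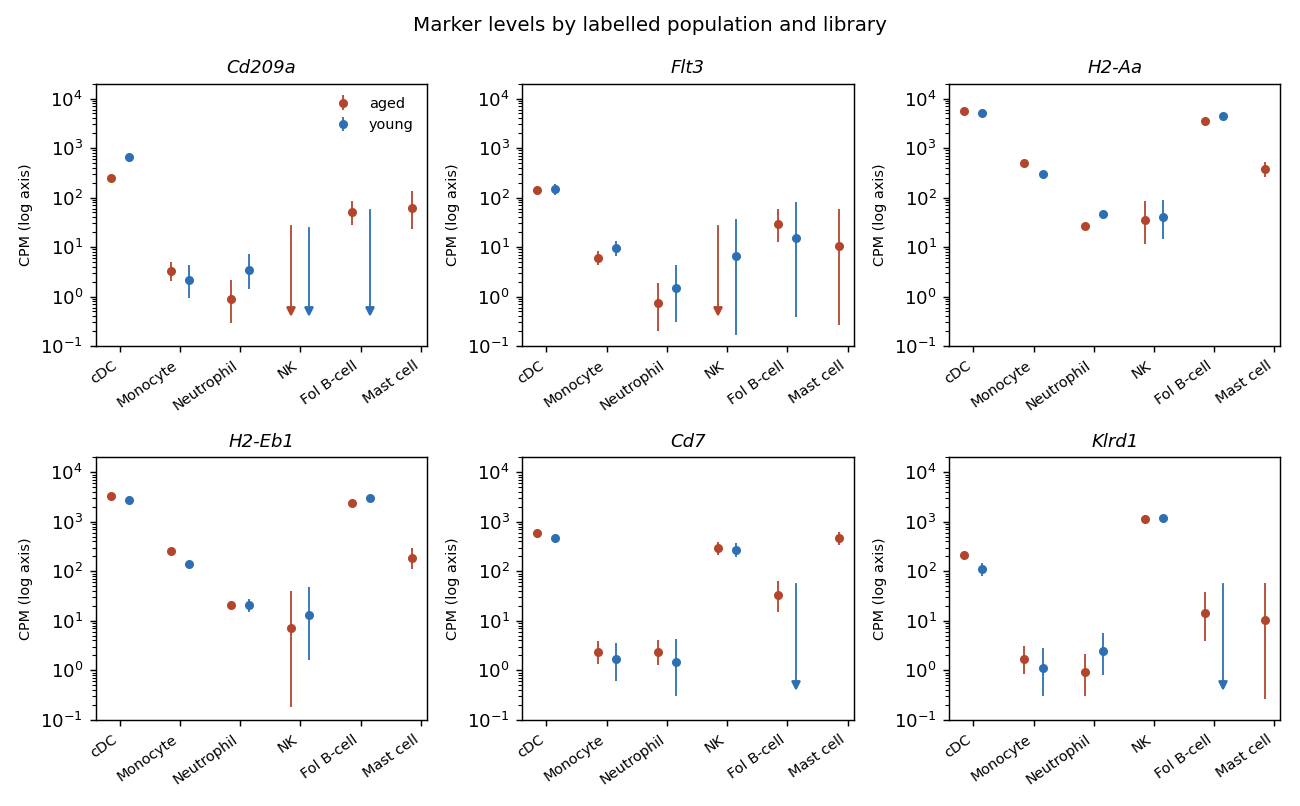
CPM (log axis) of the 5 markers and Klrd1 in each labelled population, aged cells in red and young cells in blue, with exact 95% counting intervals; arrows pointing down stand for 0 UMIs and start at the upper limit, and no young cell was labelled Mast cell. The marker levels of cDC lie above those of monocytes in every panel, while NK cells exceed cDC for Klrd1 and B cells come near cDC for the class II genes.

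Part of the single cDC carried several markers together. After thinning every cell to 1000 UMIs, 36 of 104 aged cDC (34.6%) and 20 of 52 young cDC (38.5%) held at least 3 of the 5 markers. The same held for 5 of 932 aged monocytes (0.54%) and 1 of 540 young monocytes (0.19%), and for 2 of 99 aged and 0 of 84 young NK and B cells, where a share of up to 4.30% would still give a count of 0. Without thinning, the shares in cDC were 77.9% in aged and 78.9% in young blood. All 5 markers were held by 0 aged and 0 young cDC after thinning, and by 16.35% of aged and 28.85% of young cDC without it. After thinning, 6 aged and 9 young cDC held 0 of the markers. NK and B cells were shallower, with medians of 2654 UMIs in aged and 2078 UMIs in young blood. For H2-Aa alone, a UMI was seen in 81.7% of thinned aged and 73.1% of thinned young cDC, and in 44.4% of aged and 20.2% of young NK and B cells.

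Beyond the markers, cDC held more of antigen presentation genes and of several receptors, and less of the secreted and lipid-handling genes of monocytes. Of 7781 genes with at least 50 UMIs in the cells compared, 256 (3.29%) were at least 2-fold higher and 327 (4.20%) at least 2-fold lower in cDC than in monocytes in both libraries. All 10 measured class II genes were among those at least 2-fold higher, where 4.93% of the genes measured by the list rule (at least 20 UMIs in cDC) were. They included Cd74, the invariant chain, at 13190 CPM in aged and 13500 CPM in young cDC, against 1193 and 711 CPM in aged and young monocytes. They also included Ciita, the master regulator of class II transcription, at 66.7 CPM in aged and 74.3 CPM in young cDC, against 6.56 and 4.42 CPM in aged and young monocytes. The peptide-loading genes H2-DMa and H2-DMb1 stood apart less, with cDC over monocyte ratios of 4.35 and 6.54 in aged blood and 4.36 and 6.89 in young blood.

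Receptors better known from lymphoid cells were among the leading genes. Klrd1, the CD94 chain known from NK cells, stood at 214 CPM in aged and 110 CPM in young cDC, against 1.72 and 1.10 CPM in aged and young monocytes. The other NK list genes did not go with it: Ncr1, Klra8 and Xcl1 had 0 UMIs in cDC, and Gzma, Nkg7, Klrb1c and Klre1 had 1 to 8 UMIs per library. Fgfr1, a fibroblast growth factor receptor, was 121-fold (49.4 to 385) higher than in monocytes in aged blood and 92.9-fold (28.9 to 476) in young blood. Kmo, an enzyme of tryptophan breakdown, was 182-fold (47.4 to 1558) higher in aged and 26.2-fold (12.8 to 57.7) higher in young blood. Siglecg, Ffar2 (a receptor for short-chain fatty acids), H2-Oa, Ifi205 and Ddr1 completed the 15 highest genes beside the class II genes and Flt3, with ratios between 19.4 and 44.1 over both libraries. Ratios of this size rest on few UMIs in monocytes, as their intervals show.

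Of the core cDC genes, 9 of 14 measured were at least 2-fold higher than in monocytes in both libraries and 0 at least 2-fold lower, where 4.93% of the genes of the list rule were higher and 2.13% lower. They included Bcl11a, a transcription factor of early dendritic cell fate, with ratios of 11.7 in aged and 10.1 in young blood. They also included the dipeptidase Dpp4, known as CD26, with 26.7 in aged and 13.5 in young blood, and Id2, with 3.62 (3.31 to 3.96) in aged and 2.1 (1.83 to 2.41) in young blood. Zbtb46, the transcription factor that best defines cDC in mice, had 2 UMIs in aged and 0 in young cDC and could not be compared. Spi1, which monocytes also need, was level at 1.10 in aged and 1.00 in young blood. Of the type 2 genes, 5 of 16 measured were at least 2-fold higher, against the same 4.93%: Cd209a, Clec10a, Irf4, Cd7 and Cx3cr1. The lectin genes Clec4a2 and Clec4a3 were at least 2-fold lower. Clec10a, a lectin for galactose-type sugars, stood at 118 CPM in aged and 141 CPM in young cDC, against 18.6 and 17.4 CPM in aged and young monocytes. Sirpa was level between the populations, at 0.904 in aged and 0.857 in young blood, and Cd4 had 0 UMIs in cDC.

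The 10 genes ranked lowest in cDC are genes that monocytes and macrophages express. Chil3, a chitinase-like protein of Ly6C-high monocytes, stood at 200.1 CPM in aged and 105 CPM in young cDC, against 3730 and 3914 CPM in aged and young monocytes. Apoe, the lipid carrier, stood at 559 CPM in aged and 379 CPM in young cDC, against 3458 and 3182 CPM in aged and young monocytes. Saa3, C1qb, Vcan, C3, Fn1, Mgst1, F10 and Apoc1 made up the rest of the 10 lowest, with cDC over monocyte ratios from 0.0219 to 0.136, of which C1qb, Vcan, C3 and Apoc1 rest on 1 to 7 UMIs per library in cDC. Of the classical monocyte list, 8 of 16 measured genes were at least 2-fold lower in both libraries, where 2.13% of the genes of the list rule were. Of the neutrophil list 6 of 13 were, namely S100a8, Mmp8, Lcn2, Il1r2, Wfdc21 and Slpi. Ccr2, the receptor by which monocytes leave the marrow, stood at 709 CPM in aged and 738 CPM in young cDC, against 934 and 988 CPM in aged and young monocytes.

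Class II content varied widely from cell to cell within the label. The class II list took a median of 2.43% of a cell's UMIs in aged cDC (0.0104 to 12.5%) and 2.73% in young cDC (0.0565 to 8.18%), while the median was 0.0332% in aged and 0.0362% in young monocytes. At least 1% of UMIs was reached by 75 of 104 aged cDC (72.1%) and 33 of 52 young cDC (63.5%), against 67 of 932 aged (7.19%) and 25 of 540 young monocytes (4.63%). Under 0.1% were 6 aged and 3 young cDC. Those few cells had no H2-Eb1 UMI and 0 (aged) and 2 (young) H2-Aa UMIs, yet 4 of the 6 aged cells held Cd7. Their Lyz2, the lysozyme gene of monocytes and neutrophils, stood at 7211 CPM in aged and 11010 CPM in young cells, above the level of all cDC in each library. The label thus also holds a few cells with hardly any class II transcripts.

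A small set of type 1-like cells stood out when the cDC were clustered alone. At the coarsest of the 3 resolutions tried, 16 cells, 12 aged and 4 young, separated from the other 140. Of the 7 type 1 markers set for naming, 5 were detected: Irf8 with 119 UMIs, Batf3 with 46, Clec9a with 5, and Xcr1 and Tlr3 with 1 each, and Itgae and Cadm1 were not analysed here. The name rests mainly on Irf8 and Batf3. The genes leading the cluster by fold were Gcsam, Rab7b, Ifi205, Cd200r3, Ccl3, P2ry14, Naaa, Il6, Nmnat3 and Snx22. Since the genes made the clusters, the values that follow are a description.

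The type 1-like cells lacked the type 2 genes. Irf8 stood at 983 CPM in them and 184 CPM in the other cDC, and Batf3 at 380 CPM against 59.7 CPM. Cd24a, a surface marker of type 1 cells, stood at 760 CPM in them, against 111 CPM in the other cDC, and Naaa, a lysosomal amidase, at 628 CPM against 79.9 CPM. Cd209a, Clec10a, Mgl2, Irf4 and F13a1 had 0 UMIs in the 16 cells. Sirpa stood at 16.5 CPM in them against 122 CPM in the other cDC, Lyz2 at 496 CPM against 3838 CPM, and Cd7 at 66.1 CPM against 609 CPM. Itgam had 1 UMI in the 16 cells and 103 CPM in the others, although the sort was on its product. Flt3 was about level, at 157 CPM in them and 142 CPM in the others. Class II was high in each of the 16 cells, from 1.71 to 6.55% of UMIs in the aged and 2.30 to 3.96% in the young cells. Ccl3, a chemokine ligand, had 24 UMIs in the 16 cells, 23 of them in 1 aged cell, and Il6 had 4 UMIs, all in 1 cell.

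**Figure D2:**
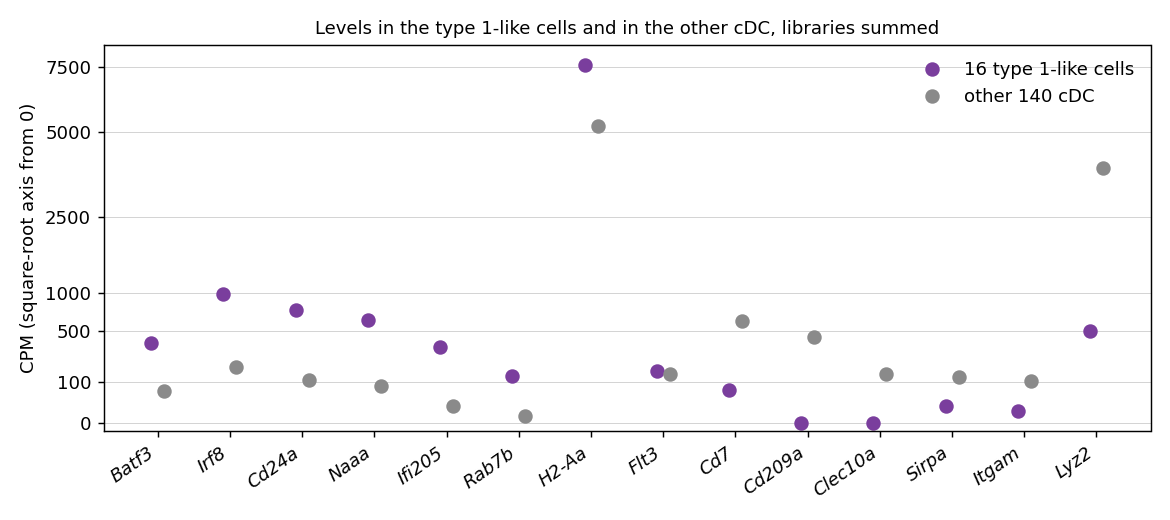
CPM (square-root axis) of 14 genes in the 16 type 1-like cells (purple) and the other 140 cDC (grey), both libraries summed. Batf3, Irf8, Cd24a, Naaa, Ifi205 and Rab7b lie higher in the 16 cells, Flt3 is about level, and Cd209a and Clec10a are at 0 in them.

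The size of that cluster depended on the resolution. The 16 cells made up 11.5% (6.11 to 19.3) of aged and 7.69% (2.14 to 18.5) of young cDC. At the middle resolution they lay, all 16, in a cluster of 25 aged and 14 young cells that was led by Ccnb2, Pdia5 and Ifi205 and was left unnamed (24.0% of aged and 26.9% of young cDC). At the finest resolution all 16 lay in a cluster of 14 aged and 4 young cells. The finest division also gave a cluster of 26 aged and 1 young cell led by Ngfr, Lag3, Ly6d and Siglech, and a cluster of 11 aged and 24 young cells led by Isg15, Ifit3, Mgl2 and Cd209a. These clusters are mostly of 1 library and are left unnamed. The plasmacytoid list summed to 514 CPM in aged and 446 CPM in young cDC, against 217 CPM in aged and 234 CPM in young monocytes. Of its 4 measured genes, 2 were at least 2-fold higher in cDC, Bst2 and Runx2, where 4.93% of the genes of the list rule were. Bst2, also an interferon-induced gene, was seen in 66 of 104 aged and 35 of 52 young cDC. Siglech, a receptor more particular to plasmacytoid cells, had 11 UMIs in 6 aged and 11 UMIs in 2 young cells. The list of mature migratory cells had 112 UMIs in 67 aged and 68 UMIs in 36 young cDC, or 156 CPM and 174 CPM, against 191 CPM in aged and 178 CPM in young monocytes. Of it, 0 of 4 measured genes were at least 2-fold higher or lower in cDC, where 4.93% of the genes of the list rule were higher and 2.13% lower. Ccr7 and Socs2 had 0 UMIs, and Fscn1, Ccl22 and Ccl17 were not analysed here.

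Summed over all cDC, class II genes differed little between ages, and their sums differed more in monocytes. Within some clusters of cDC the difference was larger, as given further below. H2-Aa had an aged over young ratio of 1.11 (1.05 to 1.17) in cDC and 1.70 (1.59 to 1.83) in monocytes. H2-Ab1 had 1.25 (1.18 to 1.32) in cDC and 1.77 (1.64 to 1.90) in monocytes, and H2-Eb1 had 1.20 (1.12 to 1.29) and 1.84 (1.66 to 2.03). Cd74 had 0.978 (0.945 to 1.01) in cDC, against 1.68 (1.60 to 1.75) in monocytes. In each case the interval of cDC lay below that of monocytes. The typical monocyte did not carry more in aged blood: the class II share of a monocyte's UMIs had a median of 0.0332% in aged and 0.0362% in young blood and an upper quartile of 0.0650% in aged and 0.0647% in young blood, while cells with at least 1% made up 7.19% of aged and 4.63% of young monocytes. Of the 10 measured class II genes, 1 was at least 1.5-fold higher in aged cDC and 0 lower, where 13.9% of 4790 genes with at least 20 UMIs in cDC were at least 1.5-fold higher and 10.6% lower. That gene was H2-DMb2, a peptide-loading chain, at 69.5 CPM in aged and 30.8 CPM in young cDC (2.26, 1.19 to 4.66). The median log2 ratio was 0.16 in cDC and 0.40 in monocytes, with 0.06 over all genes in cDC and 0.05 in monocytes. Type 1-like cells and the others went alike for H2-Aa, at 1.23 (1.05 to 1.44) and 1.07 (1.01 to 1.14), but their other class II genes were spread, with H2-Ab1 at 1.92 (1.62 to 2.30) in the type 1-like and 1.14 (1.07 to 1.21) in the other cDC.

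Of the 5 markers, Cd209a had the ratio farthest from 1 between ages. It stood at 249 CPM in aged cDC and 656 CPM in young cDC, a ratio of 0.379 (0.311 to 0.461). Flt3 had 0.970 (0.695 to 1.37) and Cd7 1.23 (1.03 to 1.46). A Cd209a UMI was seen in 44 of 104 aged (42.3%) and 32 of 52 young cDC (61.5%), and after thinning to 1000 UMIs in 17.3% (10.6 to 26.0) of aged and 23.1% (12.5 to 36.8) of young cDC, where the intervals overlap. Thinned to 2000 UMIs, the shares were 26.0% (17.9 to 35.5) in aged and 44.2% (30.5 to 58.7) in young cDC. In monocytes thinned to 1000 UMIs it was seen in 0.429% of aged and 0% of young cells. A few cells carried much of the gene: 5 aged cells with at least 10 UMIs held 41.3% of its aged UMIs, and 7 young cells held 60.2% of its young UMIs. The highest cell had 24 UMIs in aged and 48 UMIs in young blood. The type 1-like cells had 0 Cd209a UMIs, and in the other cDC the ratio was 0.398 (0.327 to 0.483) in the other cDC. Without the 1 young cell described under the interferon genes it was 0.401 (0.328 to 0.489). Clec10a, the other lectin of type 2 cells, was 0.838 (0.590 to 1.20), and Klf4, a factor of one type 2 branch, was 0.692 (0.514 to 0.934).

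Klrd1 was higher in aged cDC when all clusters were summed. It stood at 214 CPM in aged and 110 CPM in young cDC, a ratio of 1.94 (1.38 to 2.79), and a UMI was seen in 45 of 104 aged and 21 of 52 young cells. Cells with Klrd1 and without Cd209a numbered 18 of 104 in aged and 5 of 52 in young cDC, and cells with both numbered 27 in aged and 16 in young cDC.

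The libraries filled different clusters of cDC, and some of the pooled ratios differ from those within clusters. At the middle resolution, cluster 1 held 37 aged and 36 young cells, and cluster 3 held 25 aged and 14 young cells. Cluster 2 held 42 aged and 2 young cells and was led by Ngfr, Klra17 and Ly6d. Of these, 13 were among the 15 aged cells above 3% for the neutrophil list, described below. Clusters of the finest resolution are called fine clusters here. Fine cluster 1 held 28 aged and 13 young cells, and fine cluster 2 held 11 and 24. Fine cluster 4 held 12 and 10, and fine cluster 5 held 14 and 4. Fine cluster 3 held 1 young cell and fine cluster 6, all 13 cells of which were above that 3%, held 0. The clusters were made from these genes, so the values within them are a description. H2-Aa was near level in cluster 1, at 5876 CPM in aged and 6114 CPM in young cells, and in cluster 2, at 5572 and 5994 CPM. In cluster 3 it was higher in aged cells, at 5536 and 2588 CPM. It was also higher in aged cells of fine clusters 1 and 2, at 3807 and 1691 CPM and 14250 and 8616 CPM. Fine clusters 4 and 5 had 3339 and 1007 CPM and 7603 and 6498 CPM in aged and young cells. Klrd1 was highest in cluster 2, at 423 CPM in aged and 344.5 CPM in young cells, the second from 5 UMIs in 2 cells. Within cluster 1 it stood at 86.5 CPM in aged and 102 CPM in young cells, and within cluster 3 at 61.3 and 99.9 CPM. At this resolution the higher pooled value in aged cDC is thus not seen within either. The finest resolution differed, with Klrd1 higher in aged cells of fine clusters 1, 2 and 4. It stood there at 84.15 and 0 CPM, 329 and 172 CPM, and 132 and 102 CPM in aged and young cells. In fine cluster 5 it stood at 0 CPM in aged and 94.6 CPM in young cells, the second from 3 UMIs. Cd7 was lower in aged cells in all 3 clusters of the middle resolution, although its pooled ratio was above 1. It stood at 177 CPM in aged and 237 CPM in young cells of cluster 1, and at 318 and 854 CPM in cluster 3. In cluster 2 it stood at 1122 and 2067 CPM, the second from 2 cells. In fine clusters 2 and 4 it was lower in aged cells too, at 180 and 339 CPM and 648.5 and 1173 CPM. In fine cluster 5 it was about level, at 59.6 and 63.1 CPM, from 6 aged and 2 young UMIs. In fine cluster 1 it was higher in aged cells, at 188 CPM against 85.6 CPM in young cells, the second from 8 UMIs. Cd209a was lower in aged cells in all 3 clusters of the middle resolution as well as in the pool. It stood at 248 CPM in aged and 874 CPM in young cells of cluster 1, 384.5 and 689 CPM in cluster 2, and 33.5 and 127 CPM in cluster 3. Among the fine clusters it was highest in fine cluster 2, at 868 CPM in aged and 1177 CPM in young cells. That cluster held 10.6% of aged and 46.15% of young cDC. Fine clusters 1 and 4 had 153 and 257 CPM and 84.1 and 178.5 CPM, and fine cluster 5 had 1 UMI in aged and 0 in young cells.

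**Figure D3:**
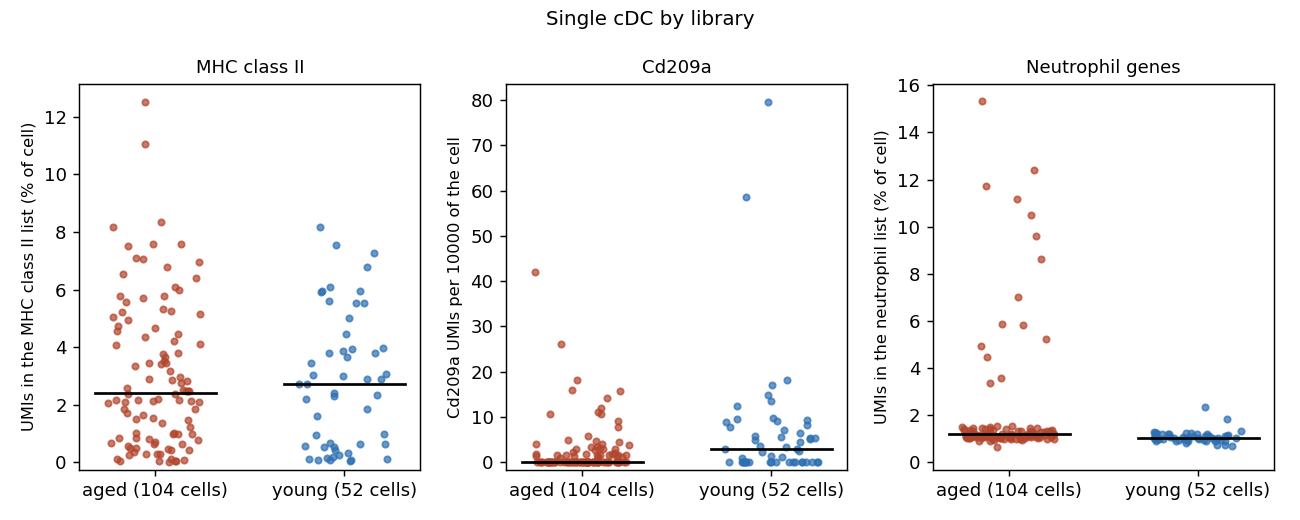
Each point is a cDC, aged in red and young in blue, with the median as a black line; the axes give the share of the cell's UMIs in the class II list, Cd209a UMIs per 10000 UMIs of the cell, and the share in the neutrophil list. Class II spreads alike in both libraries, Cd209a sits higher in young cells with a few very high cells, and only aged cells lie above 3% for the neutrophil list.

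Over single genes with at least 50 UMIs in cDC, 52 of 2504 (2.08%) were at least 2-fold higher and 48 (1.92%) at least 2-fold lower in aged cDC. Ranked by the interval bound nearest to 1, whatever the fold, the 12 highest of the genes with that many UMIs were Cxcl2, S100a8, S100a9, Pglyrp1, Lcn2, Retnlg, Tcp11l2, Gpr171, S100a11, Pfkp, Cst7 and Tppp3. The first 6 of these are genes of the neutrophil type. S100a8, a calprotectin subunit, stood at 10390 CPM in aged and 4722 CPM in young cDC (2.20, 2.09 to 2.32). Lcn2, a siderophore-binding protein, stood at 438 CPM in aged and 185 CPM in young cDC (2.37, 1.83 to 3.11). Cxcl2, a chemokine for neutrophils, stood at 156 CPM in aged and 43.6 CPM in young cDC (3.57, 2.13 to 6.35). Of the neutrophil list, 10 of 13 measured genes were at least 1.5-fold higher and 0 lower, with a median log2 ratio of 1.08. Of all 4790 genes with at least 20 UMIs in cDC, 13.9% were higher and 10.6% lower. In monocytes 3 of the same 13 were at least 1.5-fold higher, where 4.39% of the same genes were higher and 5.89% lower, with a median of 0.41.

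A few aged cells carried most of this difference. The summed neutrophil list reached more than 3% of the UMIs in 15 of 104 aged cDC (14.4%, 8.30 to 22.7) and in 0 of 52 young cDC, which allows a share of up to 6.85% by the exact interval. The threshold was chosen after the values were seen, and the gap around it was wide: the 15 cells lay between 3.38 and 15.3%, the other aged cells up to 1.56%, and the young cells between 0.704 and 2.34%. Monocytes above 3% numbered 358 of 932 in aged and 122 of 540 in young blood. The 15 cells held S100a8 at 37030 CPM, against 207400 CPM in aged neutrophils, Ly6g in 6 cells and Cxcr2 in 12. They also held H2-Aa in 12 cells at 4464 CPM, Cd7 at 799 CPM and Flt3 at 135 CPM. The other 89 aged cDC held H2-Aa at 5910 CPM, Cd7 at 546 CPM and Flt3 at 143 CPM. Their median depth was 7790 UMIs, against 6540 in the other aged cDC, and their median doublet score 0.0849, against 0.0592. Aged neutrophils had a median doublet score of 0.0849 as well. Of the 16 neutrophil genes, Camp and Ltf had 0 UMIs in cDC of both libraries. Whether they are doublets with neutrophils was not tested.

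The 15 cells were chosen by their share of the neutrophil list, so leaving them out lowers the aged values of that list by construction. The values without them are a description. Without the 15 cells, the aged over young ratio of S100a8 was 1.08 (1.02 to 1.15), of S100a9 1.13 (1.06 to 1.21), of Retnlg 1.11 (1.01 to 1.24) and of Lcn2 1.15 (0.851 to 1.55). Of the 13 neutrophil genes, 3 were then at least 1.5-fold higher and 2 lower, where 15% of all genes were higher and 10.8% lower, and the median log2 ratio was 0.16. Cxcl2 was still at 1.91 (1.08 to 3.53). S100a8 then stood at 5114 CPM in aged and 4722 CPM in young cDC, while NK cells had 13230 CPM in aged and 5065 CPM in young blood. Pfkp, a phosphofructokinase of glycolysis, kept 3.11 (1.73 to 5.99) without the 15 cells, against 2.90 with them. Cst7, an inhibitor of cathepsins, kept 3.03 (1.61 to 6.21), Gpr171, a G protein-coupled receptor, 3.03 (1.61 to 6.21), and Tcp11l2 3.25 (1.42 to 8.66). In monocytes Cst7 had 2.04 (1.13 to 3.88), Gpr171 3.96 (1.39 to 15.5) and Pfkp 1.35 (1.05 to 1.74).

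**Figure D4:**
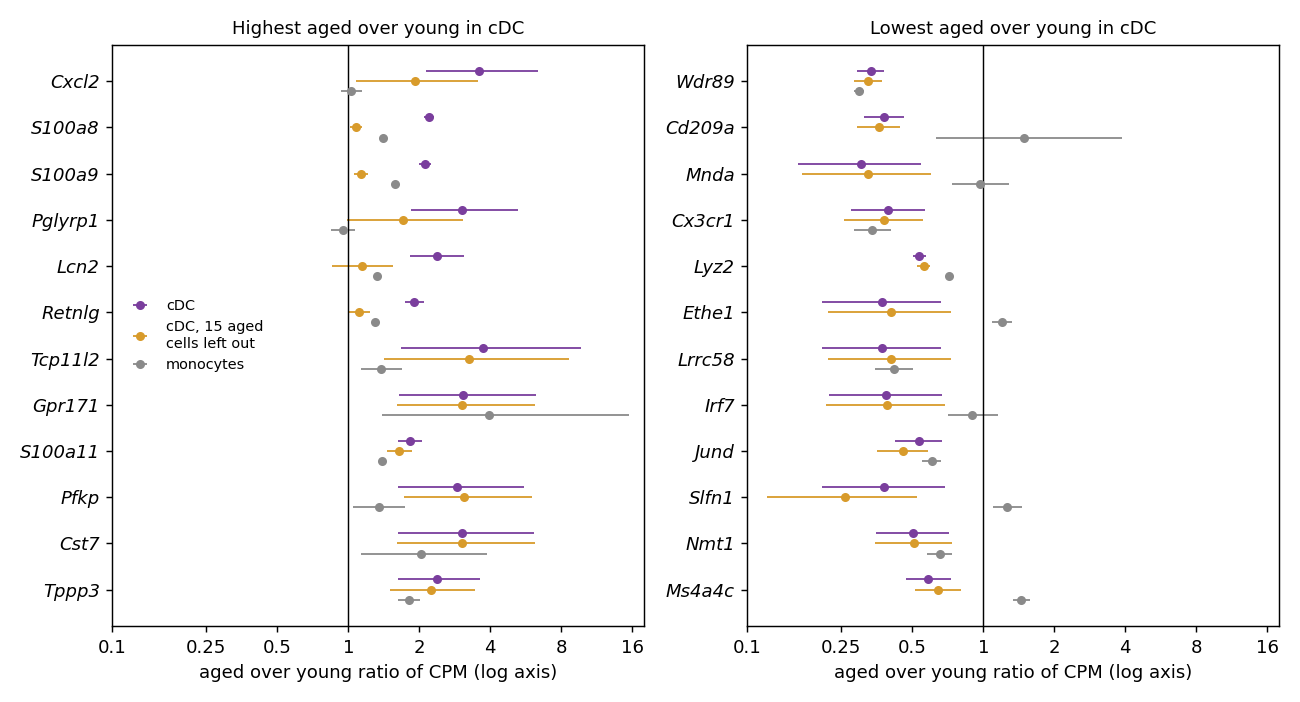
Aged over young ratio of CPM (log axis) with exact 95% intervals for the 12 genes ranked highest (left) and lowest (right) in cDC, shown for all cDC (purple), for cDC without the 15 aged cells rich in neutrophil transcripts (yellow) and for monocytes (grey). The 15 cells were chosen by their share of the neutrophil list. Without them the 6 neutrophil genes move towards 1, while Cd209a, Cx3cr1 and Lyz2 stay near their values.

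The 12 genes ranked lowest by age in the same way were Wdr89, Cd209a, Mnda, Cx3cr1, Lyz2, Ethe1, Lrrc58, Irf7, Jund, Slfn1, Nmt1 and Ms4a4c. Several were as low in monocytes. Wdr89 had 0.333 (0.292 to 0.378) in cDC and 0.297 (0.284 to 0.310) in monocytes, Lrrc58 had 0.373 and 0.419, Nmt1 0.502 and 0.652, and Jund, an AP-1 subunit, 0.532 and 0.605. Cx3cr1, the fractalkine receptor, stood at 77.8 CPM in aged and 197 CPM in young cDC (0.394, 0.274 to 0.564), and in monocytes its ratio was 0.339 (0.282 to 0.405). Lyz2 stood at 2658 CPM in aged and 4978 CPM in young cDC (0.534, 0.501 to 0.569), against 0.714 (0.706 to 0.722) in monocytes. Ethe1, a mitochondrial sulfur dioxygenase, had 0.373 (0.206 to 0.662) in cDC and 1.20 (1.08 to 1.32) in monocytes. Ms4a4c, a membrane protein of myeloid cells, had 0.585 (0.471 to 0.726) in cDC and 1.45 (1.34 to 1.57) in monocytes. These genes lay on opposite sides of 1 in the populations, each with 1 library per age.

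Globin transcripts were lower in aged cDC too. Hbb-bs, a beta globin, stood at 88.9 CPM in aged and 384 CPM in young cDC, a ratio of 0.231 (0.170 to 0.312), and in monocytes the ratio was 0.550 (0.512 to 0.591). Hba-a1 and Hba-a2, near-identical copies between which counts may be split, had 0.170 and 0.310 in cDC. The erythroid marker Alas2 had 0 UMIs in aged and 1 UMI in young cDC. The part of free red cell RNA in these values was not tested.

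More than the background share of interferon-response genes was lower in aged cDC, and 1 young cell held many of their UMIs. Of 16 measured genes, 9 were at least 1.5-fold lower and 1 higher, where 10.6% of all genes were lower and 13.9% higher, with a median log2 ratio of -0.61, against 0.23 in monocytes. Isg15, a ubiquitin-like protein made on interferon, stood at 12.5 CPM in aged and 79.5 CPM in young cDC. Irf7, the amplifier of type I interferon production, stood at 34.7 CPM in aged and 89.7 CPM in young cDC (0.387, 0.222 to 0.666). A single young cell of 11500 UMIs held 86 of the 135 UMIs that 10 interferon genes had in young cDC, while the next young cell held 8 and the highest aged cell 10. That cell also had 21 Cd209a and 146 H2-Aa UMIs. It was chosen by its UMIs of the 10 interferon genes, so leaving it out lowers their young values by construction. Without it, 5 of the 16 genes were lower, where 10% of all genes were, and the median log2 ratio was -0.11. Irf7 was then at 1.10 (0.531 to 2.39), Isg15 at 0.789 (0.251 to 2.69), Mnda at 0.555 (0.276 to 1.12) and Ms4a4c at 0.753 (0.596 to 0.954). Mnda and Ifi204 belong to a family of close copies, so reads may be split between them.

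The abundant interferon-induced transmembrane genes were not lower in aged cDC, and the list summed over all its genes stood at 13810 CPM in aged and 11430 CPM in young cDC. Ifitm1 stood at 4959 CPM in aged and 2938 CPM in young cDC (1.69, 1.58 to 1.81), and in monocytes its ratio was 2.07 (1.99 to 2.15). Ifitm2 had 1.41 (1.30 to 1.54) in cDC and 1.54 (1.5 to 1.58) in monocytes, and Ifitm3 had 1.00 (0.943 to 1.06) and 1.24 (1.21 to 1.26). The median share of a cell's UMIs in the whole interferon list was 1.35% in aged and 1.13% in young cDC.

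Antigen processing, costimulation and metabolism lists had shares of called genes near or below those of all genes, which were 13.9% higher and 10.6% lower. Of the 10 processing proteases and helpers, 1 was at least 1.5-fold higher and 0 lower: Ctsl, cathepsin L, at 110 CPM in aged and 46.1 CPM in young cDC (2.38, 1.41 to 4.22), with 2.28 (2.09 to 2.50) in monocytes. Ctss, cathepsin S, which trims the invariant chain, had 1.32 (1.19 to 1.47), and Ifi30, the thiol reductase of endosomes, 1.38 (1.23 to 1.55). Of 13 class I genes, Psme2, a proteasome activator subunit, was the 1 at least 1.5-fold higher, at 1.57 (1.21 to 2.06). Of 7 costimulation genes, Cd40, the receptor through which T cells license dendritic cells, was the 1 lower, with 10 UMIs in aged and 19 UMIs in young cDC (0.285, 0.118 to 0.645). Cd86 was level at 1.04 (0.513 to 2.22), Cd80 had 1 UMI in aged and 0 in young cDC, and Pdcd1lg2 had 0 UMIs. Of 16 glycolysis and hypoxia genes, 3 were at least 1.5-fold higher, which were Pfkp, Pgk1 at 2.27 (1.16 to 4.85) and Slc16a3 at 1.55 (0.629 to 4.33), and Hk2 was lower at 0.484 (0.271 to 0.861). Pgk1 and Hk2 went alike in monocytes, at 2.14 and 0.527.

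Of 19 AP-1 and immediate early genes, 1 was at least 1.5-fold higher and 3 lower, which is below and near the 13.9% and 10.6% of all genes. The higher was Jun, at 1.56 (1.02 to 2.42) in cDC and 0.758 (0.634 to 0.908) in monocytes, and the lower were Jund, Atf3 at 0.461 (0.227 to 0.926) and Nr4a1 at 0.517 (0.271 to 0.986). Tmem173, which encodes the DNA sensor adaptor STING, had 1.5 (1.06 to 2.17) in cDC and 1.00 (0.853 to 1.18) in monocytes. Notch2, a receptor that type 2 cells need in spleen, had 0.460 (0.268 to 0.785) in cDC and 0.561 (0.481 to 0.653) in monocytes. Id2 had 1.45 (1.26 to 1.68) in cDC and 0.842 (0.781 to 0.908) in monocytes. Of 8 measured cell cycle genes, 1 was at least 1.5-fold higher in cDC, near the 13.9% of all genes. In monocytes 4 of the 8 were, where 4.39% of the same genes as in cDC were. Stmn1 was level in cDC at 1.01 (0.597 to 1.76) and not in monocytes, at 4.18 (3.30 to 5.37).

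**Figure D5:**
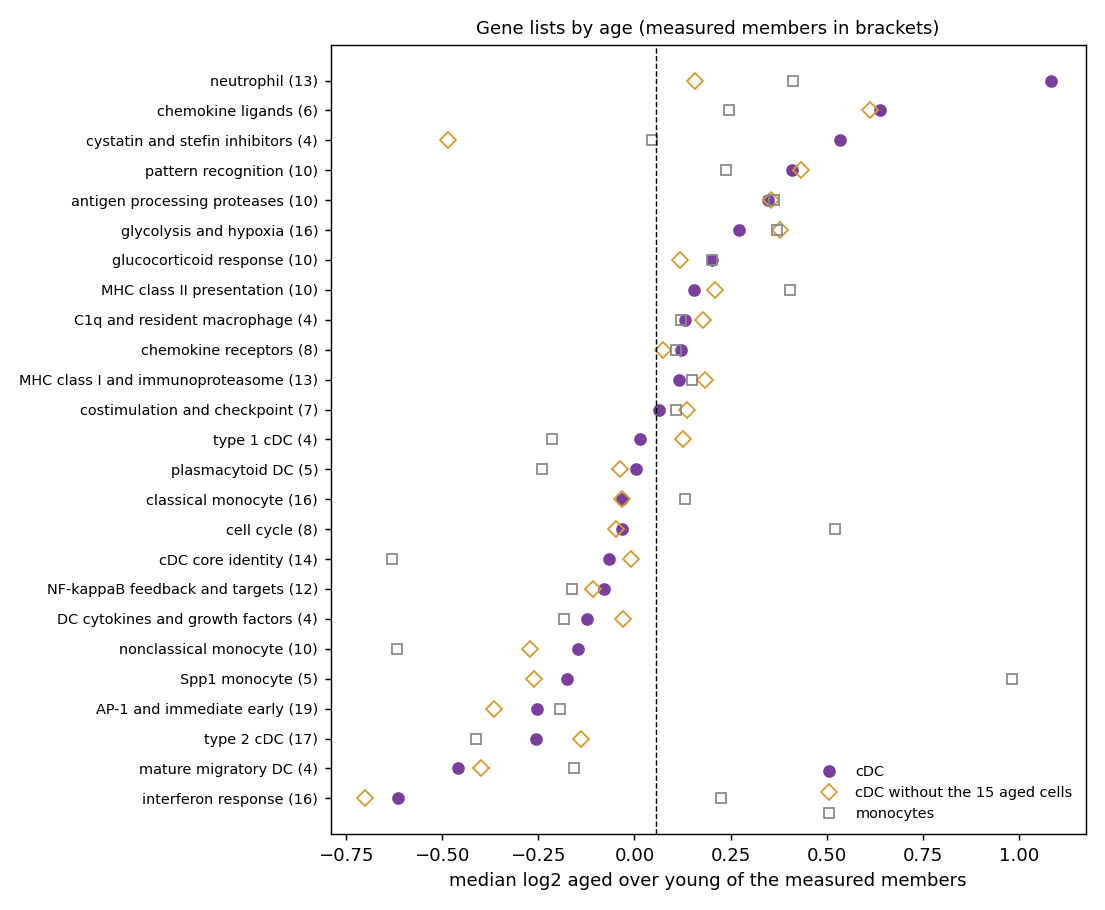
Median log2 aged over young ratio of the measured members of each gene list with at least 4 measured members, in all cDC (filled circles), in cDC without the 15 aged cells (open diamonds) and in monocytes (open squares); the dashed line is the median of all measured genes in cDC, 0.06. The neutrophil list lies highest in all cDC, at 1.08, and drops to 0.16 without the 15 cells, which were chosen by that list. The interferon list lies lowest in all cDC, at -0.61.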

How the data were processed

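Single-cell RNA was measured in 1 aged and 1 young library (2 libraries in all). The authors deposited a table of raw UMI counts per gene and cell with population labels, made with Cell Ranger 2.1.1 on mm10 per the submitters' processing notes. How they filtered and clustered cells is not stated in the labels. The members and gene lists were chosen with earlier results of these data known.

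Counts were summed per population and library (Python 3.11.15, pandas 2.3.3, numpy 2.4.6). Ratios of CPM have exact conditional binomial intervals, and shares Clopper-Pearson intervals, at 95% (scipy 1.17.1). The ratio intervals were run on simulated counts that held counting error only. That run cannot show whether they hold where counts are uneven between cells. Scrublet scores removed the top cells at 8 per 1000 for each 1000 cells. Leiden clusters (scanpy 1.11.5) used 2000 variable genes, 30 components, 15 neighbours and resolutions 0.3, 0.5 and 1. No test was possible between libraries. edgeR 4.0.16 and DESeq2 1.42.0 (R 4.3.3) gave scaling factors only, as alternatives.

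Counts of single genes took those with 50 UMIs and a 2-fold ratio, and counts of list members those with 20 UMIs and a 1.5-fold ratio by age (2-fold against monocytes). Named, with 50 UMIs and no minimum ratio, were the 15 highest and 10 lowest genes of cDC over monocytes and the 12 highest and 12 lowest by age, by the interval bound nearest to 1, plus markers and list members with the highest counts or largest ratios. Ribosomal, mitochondrial, globin, sex-linked, immunoglobulin, T cell receptor and unnamed genes and pseudogenes were left out of this ranking. Of these, 7 of 10 pseudogenes and 14 of 97 ribosomal genes were at least 2-fold lower in aged cDC, where 1.92% of 2504 genes were. The median log2 ratio of the pseudogenes was -1.435 in cDC and -1.356 in monocytes. For the ribosomal genes it was -0.0776 in cDC and -0.0734 in monocytes. The 31 lists hold 434 genes, 393 of them in the table. Gene positions are from GENCODE for GRCm38, which is mm10, and 48 of 49 named genes matched; promoters are from RefSeq.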

Additional observations from a re-analysis of the deposited data

Results flagged for a closer look

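These genes had an aged over young ratio in cDC on the other side of 1 from the ratio in monocytes, with both intervals clear of 1. The difference itself was not tested, since there is 1 library per age. Chil3 had 1.90 in cDC, against 0.953 in monocytes. Ethe1 had 0.373 in cDC, against 1.20. Fcgr1, an Fc receptor of monocytes, had 0.480, against 1.53, and 0.652 (0.373 to 1.15) without the young cell rich in interferon transcripts. Id2 had 1.45, against 0.842, and Jun 1.56, against 0.758. Lgals3, a galectin, had 0.885 in cDC, against 1.20. Mmp8 had 2.86, against 0.890, and 1.36 (0.636 to 3.08) without the 15 aged cells. Ms4a4c had 0.585, against 1.45, and Slfn1 0.379, against 1.26. Wfdc21 had 1.69, against 0.951, and 0.879 (0.673 to 1.15) without the 15 aged cells.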

How the results depend on the processing

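No paired analysis was possible because each age has 1 library. Counts of genes depended on thinning and on the UMI minimum: at least 2-fold higher in aged cDC were 381 with cells thinned to 1000 UMIs, 213 from 20 UMIs and 4 from 200, against 52, and lower 287, 165 and 20, against 48. Against monocytes, 397 and 95 were higher (from 20 and 200), against 256, and 131 (thinned) and 212 (from 200) lower, against 327. The class II median was 0.32 thinned. Chosen after seeing the data: without the 15 cells the neutrophil median was 0.16, and without the young interferon cell Irf7 was at 1.10 (0.531 to 2.39). Shares without neutrophils were 8.73% aged and 7.55% young. At least 3 markers were held by 77.9% aged and 78.9% young unthinned, and 50% and 53.9% at 2000 UMIs; Cd209a by 42.3% and 61.5% unthinned, and 26.0% and 44.2% at 2000. The Batf3 and Irf8 cluster held 11.5% aged and 7.69% young at resolution 0.3, and 13.5% and 7.69% at 1. Of 239 results for genes ranked by age, 221 were the same. In 17 the interval held 1 (14 under thinning, which leaves few UMIs). The other 1, Irf7 without the young interferon cell, moved to the other side of 1, with an interval that also held 1. Under the scalings tried, the median log2 ratio of all genes lay between -0.02 and 0.07, against 0.06. With 1 library per age, spread between animals is unknown, and low UMIs limit genes such as Zbtb46.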
